A study of Mus musculus with 2 samples.

Results

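Chemokines and their receptors were followed in peritoneal macrophages, the phagocytes of the abdominal cavity, of wild-type (WT) and MeXis null mice. The genes were those whose array name is a Ccl, Cxcl, Ccr or Cxcr symbol with its number, together with Cx3cl1, Cx3cr1, Xcl1, Xcr1 and the atypical receptors Ccrl1, Ccrl2, Ccbp2 and Darc. The array held 55 such genes on 76 probes, of 36921 genes on 56605 probes in all. They were 21 Ccl, 13 Cxcl, 10 Ccr and 6 Cxcr genes and 5 of the others named, which gave 36 ligands and 19 receptors. No probe carried the names Ccrl1, Ccbp2 or Darc. Their present names Ackr4, Ackr2 and Ackr1, and Ackr3, are outside the rule, and none of these 4 genes was called above background in either sample.

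MeXis encodes a long noncoding RNA and neighbours Abca1, the gene of the main cholesterol exporter of macrophages. Both groups were on the strain given as bl6, were grown in DMEM with serum and antibiotics, and differed in the labels by the MeXis genotype alone. No treatment, age, sex or way of making the null allele was given, nor whether the cells were resident or drawn into the cavity by an irritant. Each genotype was 1 single-colour Agilent array hybridised with RNA pooled from 3 samples, so no difference has a replicate check or a p-value, and each one compares a single array of each genotype.

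Chemokines are small secreted proteins that guide leukocytes along gradients, and they act through receptors that couple to inhibitory G proteins. Inflammatory chemokines such as Ccl2 and Cxcl1 are induced by NF-kB and interferon signals and draw in monocytes, neutrophils and T cells, whereas homeostatic chemokines such as Cxcl12 and Cxcl13 place cells within tissues at rest. Macrophages of the peritoneum are a known source of monocyte and neutrophil attractants, and atypical receptors bind chemoattractants without the usual signal.

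All values are processed signals, the background-subtracted intensity of a spot, and a difference is the log2 value in MeXis null less that in WT, with each array scaled to its 75th percentile. A spot was called above background, or detected, by the scanner software's own mark for a signal well above it, which was given to 48.0% of the 59305 non-control spots on WT and 44.3% on MeXis null. The lowest signal so called was 12.1 on WT and 27.3 on MeXis null. Where a gene was detected in 1 sample only and its other signal lay below that lowest value, the lowest value took its place. A fold so obtained, as for Cxcr2, Pecam1, Cpa3 and Cma1, is a lower bound without allowance for error. The spread of a difference between spots was read from 285 probes printed several times on the same 2 arrays. It leaves out variation between pools, labellings and hybridisations, which 1 array of each genotype cannot measure. Between spots of one probe the difference varied with a median SD of 0.47, against a median scanner error of 0.20. A difference beyond 1.96 such SDs, 0.91 on the log2 scale or 1.88-fold, was therefore larger than the typical spread between spots of these probes. The SD is a median, so some of these probes varied more. On this basis 2-fold was used as the call. By mean signal, 274 of the 285 probes fell in the brightest class and only 3 lay under 100. The 0.91 limit is thus mainly that of bright probes. The spread at the level of dim members such as Cxcl10, Ccr6 and Cxcr5 was hardly measured. All 10 macrophage genes of a marker list, Adgre1 and Cd68 among them, were detected in both samples. The highest differences in that list were those of Lyz2 (1.23) and Cd14 (0.85) and the lowest that of Mertk (-1.96). The deleted gene had a single probe, with a signal of 12.3 in WT and 8.44 in MeXis null, neither called above background, so it did not check the labels.

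Of the 55 genes, 29 were detected in both samples, 1 in WT only and 25 in neither. Among the 29, 5 were at least 2-fold higher in MeXis null, among them the ligands Cxcl10, Cxcl1 and Ccl2 and the receptor Cxcr4. A further 6 were at least 2-fold lower, namely the ligands Ccl6 and Ccl9 and the receptors Ccrl2, Ccr6, Ccr7 and Cxcr5. These 11 were 37.9% of the 29. Across the array 15474 genes were detected in both samples; 7.35% of them were past 2-fold upwards and 4.78% downwards, 12.1% in all. The same 11 members lay beyond the 0.91 limit of the spread between spots, as did 15.1% of all genes. The median difference of the 29 members was -0.05, beside 0.04 over all genes. Signal can drift across an array's surface, so each value was also taken less the median difference of its 100 nearest detected spots, and is called surface-corrected below. The median SD between spots of one probe was 0.33 with this correction, and the 0.91 limit is that of uncorrected values. By surface-corrected values 6 members were at least 2-fold higher and 5 lower. Over all genes the shares were then 3.65% higher and 3.44% lower, 7.09% in all. Counts of the lists given below are to be read beside these shares.

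**Figure D1:**
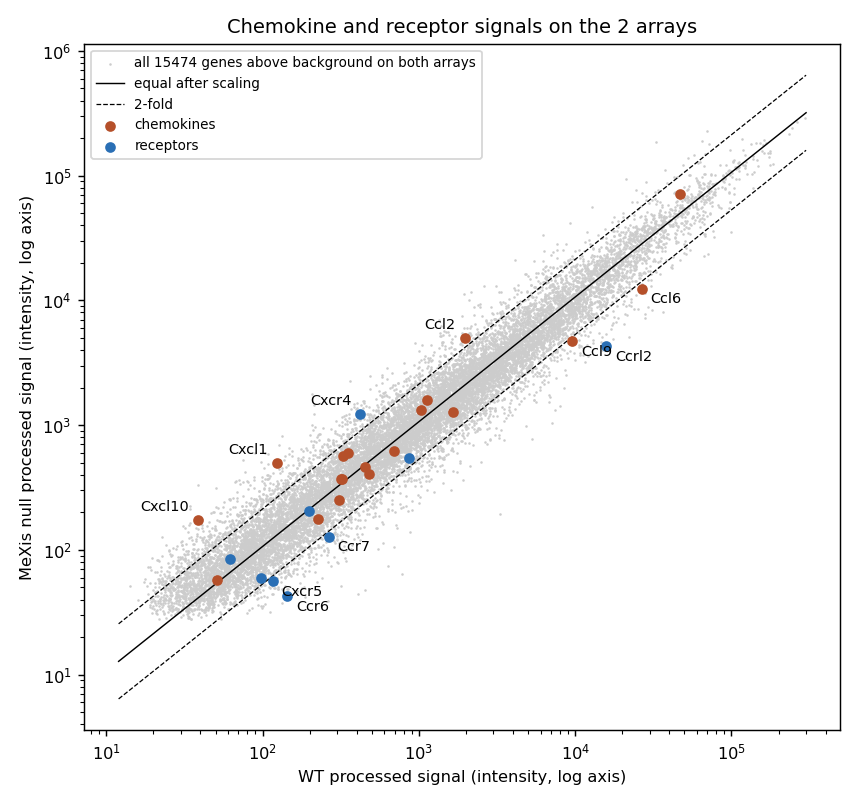
Processed signal of each gene on the WT array (x, log axis) against the MeXis null array (y, log axis), with all 15474 genes detected in both samples in grey, chemokines in orange and receptors in blue. The solid line marks equal scaled values and the dashed lines 2-fold; the 10 named members lie outside the dashed lines, with 4 above and 6 below, and 1 member is not drawn.

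The monocyte attractants are 4 CC chemokines known mainly for drawing monocytes through CCR2 or its relatives, and 3 of them were detected in both samples. Ccl2, the main monocyte attractant, gave a signal of 1960 in WT and 4987 in MeXis null. It was 2.39-fold higher in MeXis null, a difference of 1.26 with a scanner error of 0.20. The difference was 1.61 surface-corrected and 0.99 after normexp background correction, just inside 2-fold. Its probe lies at chr11:81850650-81850709 (mm9, plus strand). Ccl7, a relative that also acts on CCR2, gave a signal of 354 in WT and 603 in MeXis null, a difference of 0.68 that lay within the spread between spots. Its surface-corrected value was 1.27, so the call of Ccl7 depends on that step. Ccl8 gave 309 and 251, a difference of -0.39. Ccl12 was not called above background in either sample. Ccl2 alone of these genes was past 2-fold before the correction.

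The 5 ligands of the CCR1 group were all measured, and the 2 that were past 2-fold on the brightest probe of the gene were lower. Ccl6 and Ccl9 are rodent CCR1 ligands that macrophages are known to make without stimulation. Ccl6 gave a signal of 26566 in WT and 12364 in MeXis null, 2.29-fold lower, a difference of -1.19 with a scanner error of 0.20. Ccl9 gave a signal of 9510 in WT and 4700 in MeXis null, 2.15-fold lower, a difference of -1.11. Surface-corrected, Ccl6 was at -1.05 and Ccl9 at -1.32. Ccl9 was at -0.95 after normexp background correction, just inside 2-fold. The inflammatory members Ccl3, Ccl4 and Ccl5, known as MIP-1 alpha, MIP-1 beta and RANTES, did not pass 2-fold on the brightest probe of each gene. Ccl4 passed it on its other probe, at 1.74, as described below. Ccl3 gave a signal of 1659 in WT and 1273 in MeXis null, a difference of -0.47. Ccl5 gave 316 and 369, a difference of 0.13 (-0.25 surface-corrected).

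Ccl4 was read by a pair of probes that cover nearly the same stretch of the transcript, and they differed from each other. The brighter one, at chr11:83478052-83478111 (mm9), gave a signal of 1025 in WT and 1333 in MeXis null, a difference of 0.29. The other one starts 14 bases earlier, at chr11:83478038-83478097, shares 46 bases with it, and gave 325 and 1154, a difference of 1.74. The gap of 1.45 between them was 0.84 surface-corrected. The median of the 2 probes was 1.01, so Ccl4 passes 2-fold by that rule and not by its brighter probe. The outer 30 bases of each probe are shown from the array files, 5′ to 3′, with the 14 bases that only that probe covers in capitals.
Ccl4 probe starting first: GGGAGTATTATTTTtattatttatgtttta
Ccl4 probe starting second: gtctcccatggagatgGTCCACCATTGCTG

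The remaining CC chemokines were few and within the spread between spots. Ccl24, an eosinophil attractant acting on CCR3 and made by resident macrophages, gave a signal of 51.5 in WT and 57.3 in MeXis null, a difference of 0.06. This value was below 0 under 5 of the 10 alternatives that measured it. Ccl25, known for guiding T cells to the gut through CCR9, gave 228 and 176, a difference of -0.46. Ccl27a, an attractant of skin-homing T cells, gave 321 and 372 on its brightest probe, a difference of 0.12 (-0.12 surface-corrected). Its other probes differed by 0.54 and 0.87. The brightest probe is also listed for Ccl27b, Gm13306 and Gm2506, near-identical copies whose RNA the array cannot tell apart. The CCR3 ligands Ccl11 and Ccl26, the CCR4 ligands Ccl17 and Ccl22, and the lymphoid or epithelial chemokines Ccl1, Ccl19, Ccl20, Ccl21a and Ccl28 were not called above background in either sample.

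Neutrophil attractants are CXC chemokines that act on CXCR2, and of 5 such genes Cxcl1 and Cxcl5 were detected in both samples. Cxcl1, also called KC, gave a signal of 123 in WT and 498 in MeXis null, 3.80-fold higher, a difference of 1.93 with a scanner error of 0.21. Surface-corrected, it was at 1.46. Cxcl5, which epithelium and macrophages make, gave 451 and 461, a difference of -0.06 whose sign turned under 2 alternatives, normexp background correction and the surface correction. Cxcl2, Cxcl3 and Cxcl15 were not called above background in either sample. Cxcl1 was therefore the only measured member of this group past 2-fold.

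Interferon-inducible ligands of CXCR3 attract activated T cells and NK cells, and 2 of the 3 were detected in both samples. Cxcl10, also called IP-10, gave a signal of 38.7 in WT and 174 in MeXis null. It was 4.22-fold higher in MeXis null, a difference of 2.08 with a scanner error of 0.25. Its WT signal was low, and the difference was 1.47 surface-corrected and 0.78 after normexp background correction. The second Cxcl10 probe was not called above background in either sample, and neither was Cxcl9.

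Cxcl11, the third interferon-inducible ligand, is known to carry a frameshift in C57BL/6 mice that leaves no functional protein. Its brighter probe, at chr5:92788567-92788626 (mm9, minus strand), gave a signal of 46647 in WT and 70837 in MeXis null, a difference of 0.51. The second probe, at chr5:92788640-92788699, gave 380 and 1081, a difference of 1.42. Surface-corrected, the probes were at 0.42 and 0.40, so the gap of 0.90 between them was 0.03. The brighter probe shares a run of at least 15 bases with 30 probes of other genes, and 99.55% of all probes share one with as many such probes or fewer, while 56.4% share none. The stretch below, from that probe, has in capitals the 15-base run found most often among them, in 16 probes. The second probe shares such a run with 5 probes of other genes. How much RNA of other genes these probes read was not tested.
Cxcl11 brighter probe: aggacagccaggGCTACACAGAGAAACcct

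Both Cxcl1 and Cxcl10 were at least 2-fold higher, and their promoters are shown because both hold a motif of NF-kB, a known inducer of chemokine genes. Promoter sequences were those of RefSeq on GRCm38.p6, the 250 bases before the start of the gene, and 40 of the 55 members had an entry. An NF-kB motif, GGGANNTTCC, and the core of the interferon-stimulated response element, GAAANNGAAA, were searched on both strands. The NF-kB motif was in 1.21% of all 32851 promoters and the interferon motif in 2.98%. Members were counted by gene, with a match in any promoter of the gene. Of the 40 members, 6 held the NF-kB motif, namely Cxcl1, Cxcl2, Cxcl3, Cxcl10, Ccl1 and Ccr3. Of these, Cxcl2, Cxcl3, Ccl1 and Ccr3 were not called above background in either sample. The interferon motif was in 3, Cxcl10, Cxcl14 and Ccl19. Of the 5 members at least 2-fold higher, 3 had an entry, and Cxcl1 and Cxcl10 held the NF-kB motif. Of the 6 lower members 4 had an entry, and none of these held either motif. A match describes letters only and is not a measured site, and whether the motif goes with a higher signal was not tested. The motifs are in capitals, at -71 to -61 in Cxcl1, where a pair of matches on opposite strands overlap, and in Cxcl10 at -159 to -150 (NF-kB) and -213 to -204 (interferon).
Cxcl1, chr5:90890995-90891244, plus strand: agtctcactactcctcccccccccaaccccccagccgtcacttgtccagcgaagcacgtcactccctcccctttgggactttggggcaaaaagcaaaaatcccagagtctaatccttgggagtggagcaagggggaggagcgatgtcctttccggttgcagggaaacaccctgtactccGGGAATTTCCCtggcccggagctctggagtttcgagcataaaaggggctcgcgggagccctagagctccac
Cxcl10, chr5:92348890-92349139, minus strand: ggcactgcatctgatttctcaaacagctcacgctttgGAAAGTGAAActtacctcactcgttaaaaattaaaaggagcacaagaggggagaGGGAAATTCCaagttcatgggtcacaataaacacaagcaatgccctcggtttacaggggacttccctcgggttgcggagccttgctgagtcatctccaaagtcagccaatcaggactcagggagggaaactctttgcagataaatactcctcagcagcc

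Regulators of chemokine genes were described by a list of 21 NF-kB, interferon and cytokine genes, of which 19 were detected in both samples. None was at least 2-fold higher and 3 were at least 2-fold lower, beside 7.35% and 4.78% of all genes. The median difference of the list was -0.12. The highest were the NF-kB subunits Rel (0.58) and Nfkb1 (0.50). Surface-corrected, Rel was at -0.05 and Nfkb1 at -0.03, and the probes of Nfkb1 disagreed in sign. Irf8, a transcription factor of the macrophage lineage, gave a signal of 17521 in WT and 4908 in MeXis null, a difference of -1.93 (-1.21 surface-corrected). Tnfaip3, which encodes the NF-kB inhibitor A20, gave 5417 and 1732, a difference of -1.74 (-1.28 surface-corrected). The cytokine gene Il1a was the third past 2-fold, at -1.15, and was at -0.98 surface-corrected. The cytokine genes Il1b and Il6 were not called above background in either sample.

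Homeostatic CXC chemokines were measured for 4 of 5 genes, and none passed 2-fold. Cxcl12, the ligand of CXCR4 made mainly by stromal cells, gave a signal of 326 in WT and 564 in MeXis null, a difference of 0.70. Its second probe gave 176 and 277, a difference of 0.56, and the surface-corrected values of the 2 probes were 0.81 and 1.00. Cxcl16, a membrane-bound ligand of CXCR6 on macrophages, gave 1129 and 1585, a difference of 0.40, with 0.43 on its second probe. These pairs of probes differed from each other by 0.14 and 0.03. Cxcl13, a B cell attractant made by macrophages of the body cavities, gave a signal of 477 in WT and 408 in MeXis null, a difference of -0.31 (0.04 surface-corrected). Cxcl14, an epithelial chemokine, gave 694 and 616, a difference of -0.26. Cxcl17, Cx3cl1 and Xcl1 were not called above background in either sample. Over all 19 ligands detected in both samples the median difference was 0.12, with 3 at least 2-fold higher and 2 lower. The shares over all genes were 7.35% higher and 4.78% lower.

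**Figure D2:**
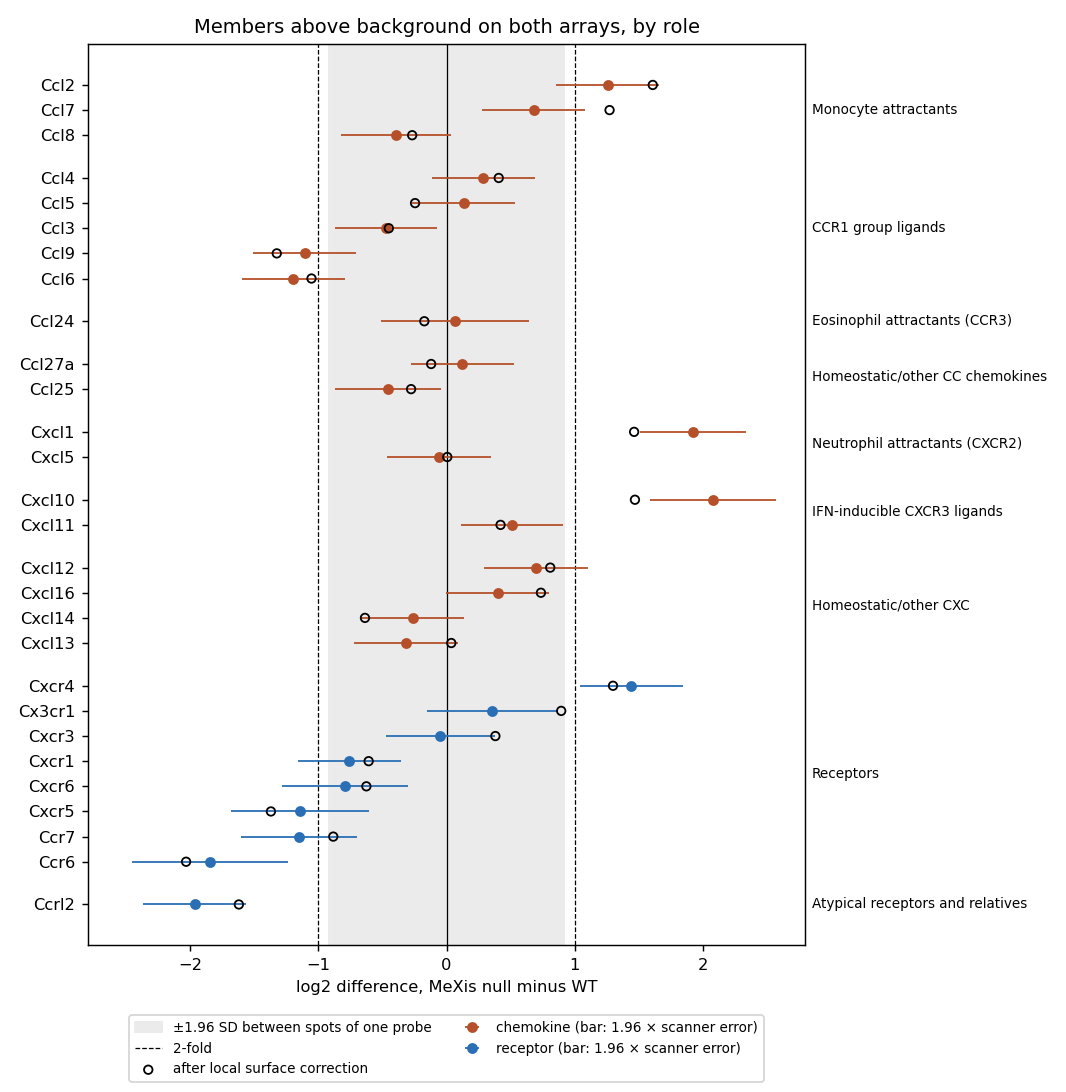
Log2 difference, MeXis null minus WT (x), of 28 of the 29 members detected in both samples, grouped by role, with chemokines in orange and receptors in blue. Bars are 1.96 times the scanner error, open circles the surface-corrected value, the grey band 1.96 SDs between spots of one probe (0.91 either way) and the dashed lines 2-fold. The 10 members drawn that are past 2-fold lie outside the band, and with the surface correction Ccl7 moves outside it and Ccr7 inside it. The band is that of uncorrected values of mostly bright probes, with a median SD of 0.47, which was 0.33 after the correction.

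Receptors were detected in both samples for 10 of 19 genes, with a median difference of -0.78, 2 at least 2-fold higher and 4 lower. Of all genes, 7.35% were at least 2-fold higher and 4.78% lower. Cxcr4, the receptor of Cxcl12, gave different values on its 2 probes. The brighter probe, at chr1:130485079-130485138 (mm9, minus strand), gave a signal of 423 in WT and 1224 in MeXis null, 2.72-fold higher, a difference of 1.44 (1.30 surface-corrected). The other probe, at chr1:130486114-130486173, gave 316 and 294, a difference of -0.19 (0.39 surface-corrected). Their median was 0.63, within 2-fold. Among the 6 members with more than 1 probe detected in both samples, Cxcr4 was the 1 whose probes differed in sign. Over all 5202 genes of that kind, probes differed in sign for 54.6%, the median gap was 0.69 and the gap was at least 1 for 31.4%. The gap for Cxcr4 was 1.64.

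**Figure D3:**
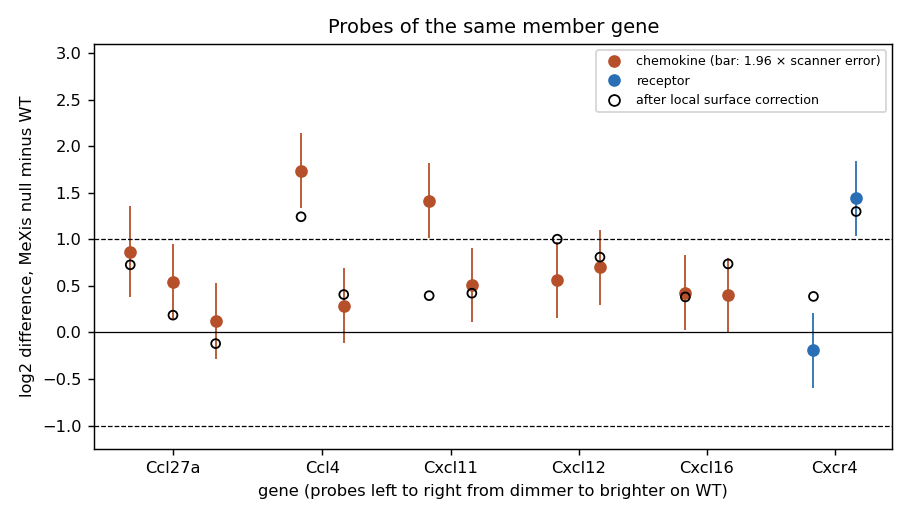
Log2 difference, MeXis null minus WT (y), of each probe of the 6 members with more than 1 probe detected in both samples, ordered within a gene from dimmer to brighter on WT. Bars are 1.96 times the scanner error, open circles the surface-corrected value and dashed lines 2-fold; the probes of Cxcl12 and Cxcl16 lie within 0.14 of each other and those of Ccl4 and Cxcr4 lie 1.45 and 1.64 apart.

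Ccrl2, an atypical receptor that binds chemerin without signalling and is induced in activated macrophages, was among the lower members. It gave a signal of 15743 in WT and 4290 in MeXis null, 3.91-fold lower, a difference of -1.97 with a scanner error of 0.20, and -1.62 surface-corrected. Its probe lies at chr9:110957839-110957898 (mm9, minus strand). The signalling receptor for the same ligand, Cmklr1, gave 28.2 and 44.0, a difference of 0.55 within the spread between spots.

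The other lower receptors, Ccr6, Ccr7 and Cxcr5, are known from lymphocytes and dendritic cells. Ccr6, the receptor of Ccl20 on B cells and some T cells, gave a signal of 144 in WT and 42.6 in MeXis null, 3.60-fold lower, a difference of -1.85 with a scanner error of 0.31. Its surface-corrected value was -2.03. Cxcr5, the receptor of Cxcl13 on B cells, gave 116 and 55.9, 2.21-fold lower, a difference of -1.14 (-1.37 surface-corrected), or -0.61 after normexp background correction. Ccr7, which guides dendritic cells and lymphocytes to lymph nodes, gave 265 and 127, 2.22-fold lower, a difference of -1.15. Ccr7 was at -0.88 surface-corrected, inside 2-fold, and its second probe was not called above background in either sample. The ligands of Ccr6 and Ccr7, Ccl20, Ccl19 and Ccl21a, were not called above background.

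B cells carry all 3 of these receptors, and their marker genes are given beside them. Of 9 B cell genes, 7 were detected in both samples, with a median difference of -0.81. Of these 7, 2 were at least 2-fold lower and none higher, beside 4.78% and 7.35% of all genes. The lowest was Cd79b (-1.71), and the highest were Cd22 (-0.15) and Fcrla (-0.24). Surface-corrected, 5 were at least 2-fold lower, beside 3.44% of all genes, and the median of the B cell genes was -1.11. Their summed signal, over all 9 genes, was 3908 on WT and 2538 on MeXis null, or 2231 and 927 without Cd22, the brightest of them. Pax5, the defining transcription factor of the lineage, was detected in WT only, and Blk on neither array. In RNA of a cell mixture, fewer cells of a type and less RNA per cell cannot be told apart, and the part of B cells in the values of Ccr6, Ccr7 and Cxcr5 was not tested.

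Of 8 monocyte and dendritic cell genes, 5 were detected in both samples, with a median of -0.60. Of these 5, 2 were at least 2-fold lower and none higher, beside 4.78% and 7.35% of all genes. The summed signal over all 8 was 28160 in WT and 40050 in MeXis null, but Itgax, which macrophages also express, supplied most of it, and without Itgax the sum was 1052 in WT and 532 in MeXis null. The lower genes were Plac8 (-1.52) and Ciita (-1.78), Itgax was at 0.45, and Flt3, Zbtb46 and Cd209a, which mark dendritic cells, were not called above background. Of 9 T and NK cell genes, 4 were detected in both samples, with a summed signal over all 9 of 1104 on WT and 1021 on MeXis null. Cd2 (-1.28) was at least 2-fold lower there, Cd3e was at -0.51, Prf1 at 0.59 and Cd4 at 0.09. Cd5, a T cell surface gene detected in WT only, gave 103 and 40.5 and was 2.70-fold lower. Cd3d, also detected in WT only, gave 50.8 and 53.6. Their part in the receptor values was not tested either.

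**Figure D4:**
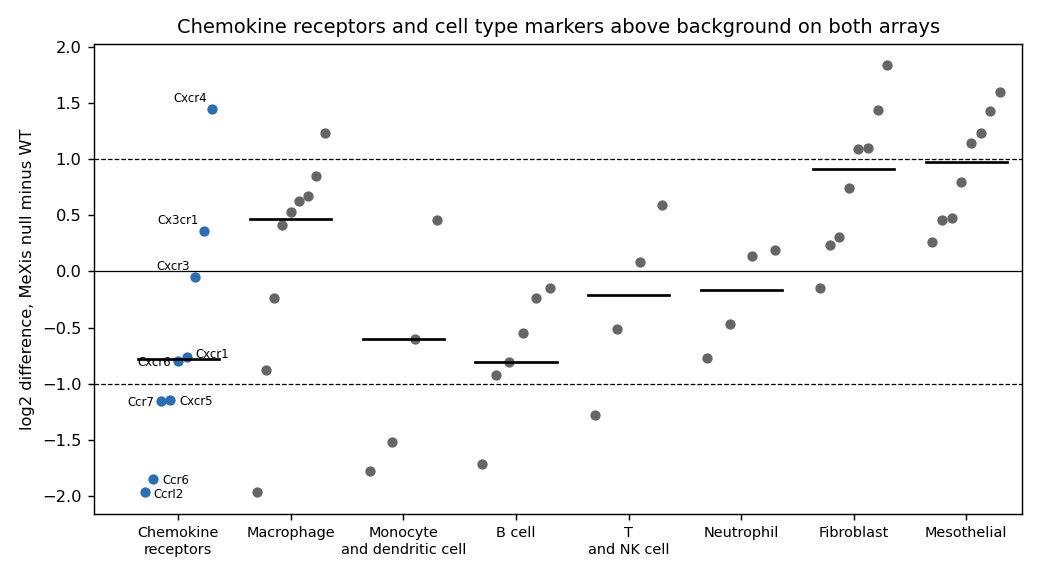
Log2 difference, MeXis null minus WT (y), of 9 of the 10 chemokine receptors (blue, named) and of most genes of 7 cell type marker lists (grey) that were detected in both samples; horizontal bars are medians of each whole set and dashed lines 2-fold. The B cell genes have a median of -0.81 and all 10 receptors one of -0.78, and the fibroblast and mesothelial genes have medians of 0.91 and 0.97. These are uncorrected values. Surface-corrected, the B cell median was -1.11, and Cxcr1 and Cxcr6, at the middle of the receptors, were at -0.61 and -0.63.

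The receptors given next were within 2-fold or unmeasured. Cx3cr1, the fractalkine receptor of monocytes and macrophages, gave a signal of 62.0 in WT and 84.6 in MeXis null, a difference of 0.36 (0.90 surface-corrected). Cxcr3, the receptor of Cxcl10 and Cxcl11, gave 198 and 204, a difference of -0.05. It was at 0.38 surface-corrected and 0.30 after normexp background correction. Cxcr1, a relative of Cxcr2, gave 868 and 546, a difference of -0.76. Cxcr6, the receptor of Cxcl16, gave 97.2 and 59.7, a difference of -0.79. Before the surface correction these 4 values lay within the spread between spots of one probe. Cxcr2, the neutrophil receptor of Cxcl1, was detected in WT only, with signals of 26.2 and 16.2. Its difference was -0.79 with a scanner error of 0.66. The bound of 1.02-fold lower in MeXis null makes no allowance for that error. Ccr1 and Ccr2, the monocyte receptors of Ccl6, Ccl9 and Ccl2, and Ccr3, Ccr4, Ccr8, Ccr9, Ccr10 and Xcr1 were not called above background in either sample. Neutrophil genes were detected in both samples for 4 of 8 in a list, with none past 2-fold and a median of -0.16. Their extremes were Elane (0.19), Mmp8 (0.13), S100a8 (-0.46) and Csf3r (-0.77), and S100a9, Mpo, Ngp and Camp were not called above background. Among 6 eosinophil genes, Siglecf (-0.75) was detected in both samples, while Epx and Prg2 were not called above background on either, like Ccr3. Ear1 and Ear2, ribonuclease genes of a family of near-identical copies, and Il5ra were detected in WT only. Ear1 gave a signal of 376 in WT and 28.6 in MeXis null, 14.0-fold lower, and Ear2 gave 1475 and 34.3, 45.8-fold lower. Il5ra gave 24.3 and 21.2.

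Ligands and their receptors gave pairs of values of like and of unlike sign. For Ccl2 the ligand was 2.39-fold higher and its receptor Ccr2 was not called above background. Cxcl10 was 4.22-fold higher with Cxcr3 at -0.05. For Cxcl12 (0.70) and Cxcr4 (1.44) both values were above 0 on the probe that stood for the gene. For Cxcl16 (0.40) and Cxcr6 (-0.79) the signs differed.

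Stromal cells of the peritoneum also make chemokines, among them Ccl2, Ccl7, Cxcl1, Cxcl10 and Cxcl12, and some of their markers were higher in MeXis null. Of 8 fibroblast genes detected in both samples, 4 were at least 2-fold higher, led by Fbn1 (1.83) and Loxl1 (1.43), and the lowest were Col3a1 (-0.15) and Thy1 (0.23). Lum, the other gene of the list, was detected in WT only and was 3.45-fold lower in MeXis null. Their summed signal was 7710 on WT and 13700 on MeXis null. Of 8 mesothelial genes, which mark the lining of the cavity, all were measured and 4 were at least 2-fold higher, led by Wt1 (1.60) and Upk3b (1.43), with Krt8 (0.27) and Msln (0.46) lowest. Their summed signal was 991 on WT and 2367 on MeXis null. Surface-corrected, 3 fibroblast and 3 mesothelial genes were at least 2-fold higher, and Upk3b, at 0.58, was no longer among them. The share of all genes at least 2-fold higher was 7.35%, or 3.65% surface-corrected. Of 3 endothelial genes detected in both samples Esam (1.09) was at least 2-fold higher, with Kdr at 0.31 and Vwf at 0.11. Pecam1, an endothelial adhesion gene detected in WT only, gave 58.3 and 12.8 and was at least 2.28-fold lower. Egfl7, detected in MeXis null only, gave 17.7 and 43.0, a difference of 1.19 with a scanner error of 0.52 (0.61 surface-corrected). The part of stromal cells in the higher chemokine values was not tested.

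Many chemokine genes lie in clusters, and the genes of one cluster took different values. On chromosome 11 the cluster from 81850650 to 81990510 (mm9) holds Ccl2, Ccl7, Ccl11, Ccl12, Ccl8 and Ccl1 in that order. Its measured genes were at 1.26 for Ccl2, 0.68 for Ccl7 and -0.39 for Ccl8. The values of Ccl7 and Ccl8 lay within the spread between spots. Surface-corrected, Ccl2 was at 1.61, Ccl7 at 1.27 and Ccl8 at -0.27. A second cluster on chromosome 11, from 83339296 to 83478111, holds Ccl5, Ccl9, Ccl6, Ccl3 and Ccl4. There the adjacent genes Ccl9 (-1.11) and Ccl6 (-1.19) were lower. Ccl5 (0.13), Ccl3 (-0.47) and the brighter probe of Ccl4 (0.29) were within 2-fold, while the other Ccl4 probe was at 1.74. On chromosome 5, Cxcl5 (-0.06) and Cxcl1 (1.93) were the measured genes among 5 from 91190490 to 91334593, and Cxcl10 (2.08) and Cxcl11 (0.51) among 3 from 92752191 to 92788626. The value of Cxcl11 is that of its brighter probe, and its other probe was at 1.42.

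Signalling downstream of the receptors was described by 35 measured genes for G protein subunits, kinases, arrestins, RGS proteins and the guanine nucleotide exchange machinery of cell migration. Of these, 34 were detected in both samples and none was past 2-fold in either direction, with a median of -0.08. The highest were Gnai2 (0.83), the main inhibitory G protein of leukocytes, and Rac1 (0.72), and the lowest Vav1 (-0.97) and Elmo1 (-0.77), which activate Rac. The probes of Gnai2 disagreed in sign, and its surface-corrected value was 0.34. Over all genes 7.35% were past 2-fold upwards and 4.78% downwards.

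**Figure D5:**
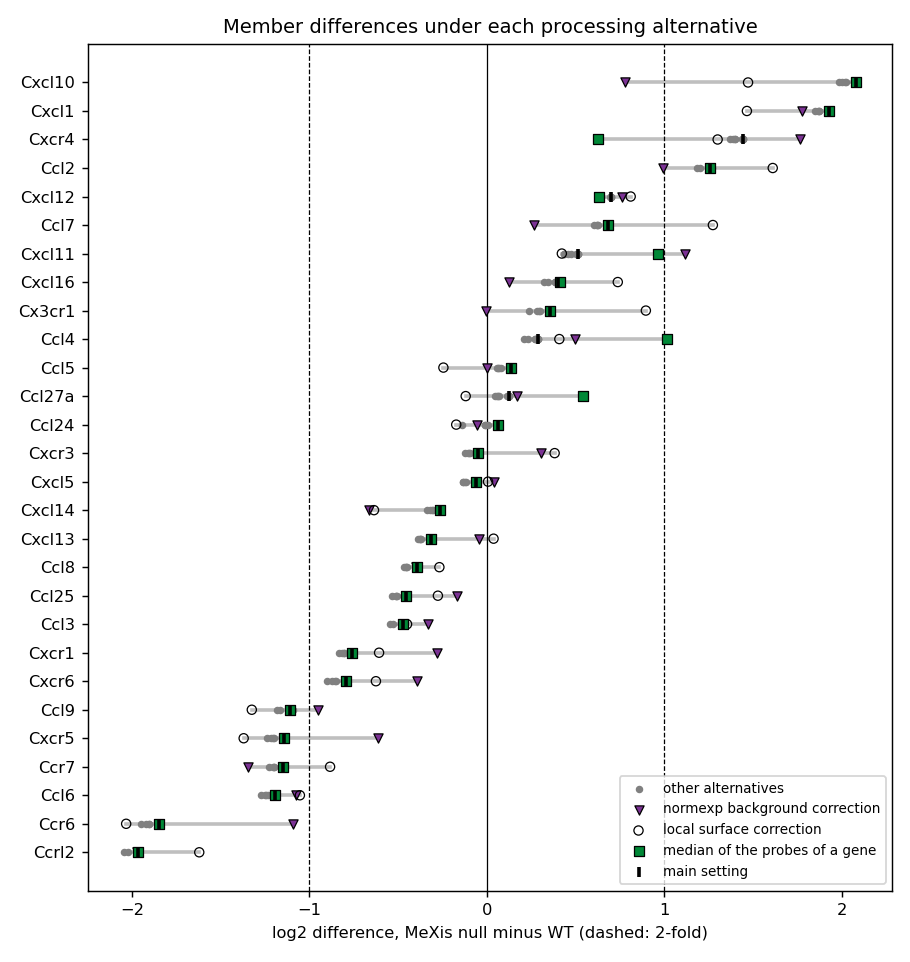
Log2 difference, MeXis null minus WT (x), of 28 of the 29 members detected in both samples under the main setting (black tick) and each processing alternative (other symbols), with grey bars spanning the range and dashed lines at 2-fold. The 10 members drawn that are past 2-fold keep their sign under every alternative that measured them, while Cxcl10 falls to 0.78 and Cxcr5 moves to -0.61 after normexp background correction and Cxcr4 falls to 0.63 when the median of its probes is used.

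Of the 11 members past 2-fold, 5 were past it under every alternative that measured them, among them Ccl6, Ccr6, Ccrl2 and Cxcl1. Some alternatives, such as the filters on dim probes, could not change a measured difference. Ccr6, Cxcl10 and Cxcr5 were too dim for the stricter filter, a signal of at least 100 on both arrays, and were not measured there. Cxcl10, Ccl2, Ccl9 and Cxcr5 were inside 2-fold after normexp background correction, Ccr7 with the surface correction and Cxcr4 with the median of its probes. In the other direction Ccl7, Cxcl11 and Ccl4 were each past 2-fold under 1 alternative.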

How the data were processed

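RNA of 1 pool per genotype was labelled with Cy3, per the labels. The deposited scanner files hold intensity per spot, on a linear scale; per the file headers they come from Agilent Feature Extraction 11.5.1.1, and probe coordinates are mm9. The deposited matrix intensity was the same as the scanner files' processed signal for all 62976 features (relative tolerance 1e-05). Both arrays were on 1 slide scanned on the same day.

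Log2 signals were scaled to each array's 75th percentile, taken over probes detected in both samples. Outlier spots (305 on WT, 205 on MeXis null) were left out, none of them a member's, and spots of one probe were averaged, which left 56351 probes. A gene's value is that of the probe whose mean log2 signal was highest. RefSeq (GRCm38.p6, used for names and promoters) named 32926 probes through accessions, 10216 through symbols and 520 through synonyms; the other 12867 kept the name of the array design.

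The rule named every member, and of each other list the 2 highest and 2 lowest genes detected in both samples; some genes it names are not reported here, though the counts and medians include them. Genes named beyond this rule, such as those detected in 1 sample only or not called above background, were named after their values were seen. Members and lists were chosen with earlier results of these data known. The steps were checked on simulated data. Alternatives changed the background correction (normexp), the scaling (quantile, median, all probes, loess, surface correction), the filter on dim probes, the choice of probe, outlier spots and the threshold. Normexp used an offset of 50 and loess a span of 0.3 (limma 3.58.1 in R 4.3.3); the rest used Python 3.11.15. The number of arrays limits the precision.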

Additional observations from a re-analysis of the deposited data

How the results depend on the processing

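No paired analysis was possible because each genotype had 1 array, and no array could be left out. Besides the main setting, 11 alternatives and thresholds of 1.5-fold and 3-fold were run. Of 312 single values of members, 303 stayed on their side of 2-fold, 6 fell inside it and 3 passed it. Not all of the 312 could move. The deposited matrix held the same signals, and the filters on dim probes leave a measured difference unchanged. Keeping outlier spots, none of them a member's, shifted the values through the scaling alone. In 13 values of 7 members, none of them past 2-fold, the sign differed. The surface correction left 1097 genes past 2-fold, 565 of them higher, of 1876 and 1137. Without a filter on dim probes 21 members (14 higher) and 8130 genes (6306 higher, 1824 lower) passed 2-fold and the members' median was 0.51, which counts spots at background. The stricter filter left 7 members past 2-fold (3 higher) and 727 genes higher, since it measured 22 of the 29 members. At 1.5-fold, which lies inside the spread between spots, 5116 genes (2886 higher, 2230 lower) passed, and at 3-fold 5 members (3 higher, 2 lower) and 402 genes (231 higher, 171 lower). Under the scaling alternatives the counts of members stayed at 5 higher and 6 lower, apart from 6 and 5 with the surface correction; normexp gave 4 and 4. The cause of these moves was not tested, other than the filters and thresholds, which act by construction. Low signals limit Cxcl10, Ccr6 and Cxcr5, which were among the dimmer members on WT, and the labels do not say what the 3 samples of a pool were.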

Other observations

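Receptors for chemoattractants other than chemokines gave values on both sides of 0. Of 13 such genes, 10 were detected in both samples, with none at least 2-fold higher, 1 lower and a median of -0.57. The lower one was Ptafr, the receptor of platelet-activating factor, which gave a signal of 3087 in WT and 1321 in MeXis null, a difference of -1.32. It was at -0.64 surface-corrected, and its probes disagreed in sign. S1pr1, the sphingosine 1-phosphate receptor of lymphocyte egress, gave 284 and 159, a difference of -0.93. The highest were Cmklr1 (0.55) and Gpr183 (0.49), the oxysterol receptor that guides B cells and dendritic cells. Fpr1 and P2ry12 were not called above background in either sample.

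Platelet chemokines and the proteoglycans that hold chemokines on cell surfaces and in granules were detected in both samples for 5 of 6 genes. Sdc4, a syndecan, gave a signal of 467 in WT and 1224 in MeXis null, a difference of 1.30 (0.88 surface-corrected), and it was the 1 gene past 2-fold. Srgn, the granule proteoglycan serglycin, was at 0.47, Sdc1 at -0.64 and the chemokine Pf4 at -0.61. The chemokine Ppbp was not called above background. Mast cell genes gave 2 of 6 detected in both samples, Tpsb2 at 0.28 and Hdc at -0.32. The mast cell proteases Cpa3 and Cma1 were detected in WT only. Cpa3 gave a signal of 37.1 in WT and 6.32 in MeXis null, at least 1.45-fold lower, and Cma1 gave 60.6 and 8.24, at least 2.37-fold lower.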
